A study of Mus musculus with 8 samples.

Results

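Stx11, Sf3b5, Adat2, Aig1, Map7 and Tbpl1 are 6 genes that lie within 100 genes of Ifngr1 on mouse chromosome 10, the gene disrupted in the knockout mice of this study. They were chosen because their signals differed between IFN-γ receptor knockout (KO) and wild-type (WT) T cells both with and without db-cAMP, so the KO minus WT values below are a description and carry no test. They are 6 of 18193 genes with a single symbol on the array and are read by 12 of its 45101 probe sets.

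The data are 8 expression arrays of splenic CD4 T cells from mice aged 8 weeks, stimulated through CD3 and CD28 for 15 h. The groups, with 2 arrays each, were KO cells given db-cAMP, WT cells given db-cAMP, KO cells given vehicle and WT cells given vehicle, with db-cAMP or vehicle present for the last 3 h. Db-cAMP is a membrane-permeable analogue of cyclic AMP, and the KO mice are labelled as deficient in IFN-gR1. The titles call the arrays biological replicates without saying whether separate mice or cultures were used, so p-values measure the spread between these arrays only, which may be technical.

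Ifngr1 encodes the ligand-binding chain of the receptor for IFN-γ, a cytokine that activated T cells secrete and respond to. In mice with a gene disrupted by targeting, the genes on either side are inherited together with the targeted allele, and can keep the sequence of the strain in which the targeting was done through many generations of backcrossing. The labels give neither the strains, the backcrossing, nor the part of Ifngr1 that was removed. DNA sequence was not measured, so an effect of the flanking chromosome and an effect of losing the receptor cannot be told apart in these groups.

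The 6 genes have different roles. Stx11 encodes syntaxin 11, a SNARE protein needed for the release of cytotoxic granules, and Sf3b5 a small subunit of the SF3B splicing complex. Adat2 encodes the catalytic subunit of the enzyme that turns adenosine into inosine at the wobble position of transfer RNAs. Aig1 encodes a membrane hydrolase of fatty acid esters of hydroxy fatty acids, Map7 a microtubule-associated protein that recruits kinesin-1, and Tbpl1 a relative of the TATA-binding protein that acts at promoters without a TATA box.

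In the gene order of the RefSeq table for GRCm38.p6, which was used for order and names, Stx11, Sf3b5, Adat2 and Aig1 stood 72, 70, 60 and 59 genes before Ifngr1. Map7 stood 8 genes and Tbpl1 72 genes after it. Adat2 and Aig1 are next to each other. Promoter sequences of 5 of the 6 genes were found in the RefSeq table of the same build, and those of Adat2, Aig1 and Stx11 are shown over the 250 bases before the start because Adat2 and Aig1 were the members with a match and Stx11 had the largest response to db-cAMP. Capitals mark TGACG, the core of the cyclic AMP response element that CREB binds.

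Adat2 (chr10:13552657-13552906, plus strand): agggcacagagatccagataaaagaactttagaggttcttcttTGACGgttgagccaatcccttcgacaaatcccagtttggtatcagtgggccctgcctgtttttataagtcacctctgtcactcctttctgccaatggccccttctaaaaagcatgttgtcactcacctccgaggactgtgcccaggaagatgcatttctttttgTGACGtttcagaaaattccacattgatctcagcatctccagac
Aig1 (chr10:13868958-13869207, minus strand): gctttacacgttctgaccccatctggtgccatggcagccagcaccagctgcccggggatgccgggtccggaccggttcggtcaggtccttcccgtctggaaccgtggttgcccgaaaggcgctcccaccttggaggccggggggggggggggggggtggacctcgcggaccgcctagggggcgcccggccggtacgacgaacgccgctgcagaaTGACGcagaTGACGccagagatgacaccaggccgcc
Stx11 (chr10:12964260-12964509, minus strand): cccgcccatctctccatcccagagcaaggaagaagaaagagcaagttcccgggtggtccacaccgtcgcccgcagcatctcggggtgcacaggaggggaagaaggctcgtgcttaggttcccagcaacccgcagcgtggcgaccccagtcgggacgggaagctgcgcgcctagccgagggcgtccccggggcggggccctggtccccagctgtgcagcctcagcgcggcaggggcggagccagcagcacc

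TGACG was searched on both strands and stood 2 times in the Adat2 promoter, beginning 207 and 43 bases before the start, and 2 times in that of Aig1, 36 and 27 bases before it. It was absent from the windows of Stx11, Map7 and Tbpl1, while 17.8% of all 32851 promoter windows of that length held it. The full element TGACGTCA, which contains that core, occurred in 0 of the 5 windows and in 1.55% of all windows. A match or its absence in these windows says nothing of binding.

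Ifngr1 itself gave signals of 1056 and 1272 in KO cells and 7319 and 8201 in WT cells under db-cAMP, and of 439 and 378 in KO cells and 905 and 873 in WT cells under vehicle. The KO signal was lower but present, and since the labels do not say which part was disrupted, the probe set checks nothing about the genotype. Titles, sources and genotype entries were followed for the KO arrays, although their free-text descriptions name WT cells. Of 15 tested genes that IFN-γ induces, 12 were lower and 0 higher in KO cells under vehicle and 14 were lower and 0 higher under db-cAMP, by limma with an adjusted p under 0.05. Of 7 CD4 T cell markers 6 were tested, and the summed signal of those tested ran from 63920 to 71295 on KO arrays and from 67800 to 71960 on WT arrays. Of the 6, 3 were higher and 1 lower in KO cells under db-cAMP, and 1 was higher and 2 lower under vehicle. Under both, Cd28 was higher (0.34 and 0.30) and Cd3d lower (-0.48 and -0.39). The CD8 T cell markers summed to between 270 and 335 on KO arrays and between 367 and 516 on WT arrays. Of these, Cd8b1 was lower in KO cells under both treatments (-0.89 ± 0.21 and -0.92 ± 0.21). Cd8a stood at 0.03 ± 0.30 (limma adjusted p = 0.948) and -0.22 ± 0.30 (0.743). B cell markers summed to 7435 and 8480 on KO arrays and 5159 and 5695 on WT arrays under db-cAMP, and to 8459 and 9263 on KO arrays and 9899 and 11176 on WT arrays under vehicle, of which Ighm made up over 4563 on each array. The sum hides opposite directions. Of 4 tested B cell markers 1 was higher and 2 were lower in KO cells under db-cAMP, and 0 were called under vehicle. Under db-cAMP Ighm was higher at 0.64 ± 0.10 (limma adjusted p = 0.000225). Cd79b was lower at -1.28 ± 0.40 (adjusted p = 0.0288) and Ms4a1 at -0.76 ± 0.25 (adjusted p = 0.0345).

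Several technical signals moved with genotype beside every KO minus WT value below. Spiked poly-A controls averaged 3699 to 5188 on KO arrays and 1283 to 1911 on WT arrays. Hybridization controls averaged 14330 to 15857 on KO arrays and 18077 to 27169 on WT arrays, and 18S rRNA signal at the 3-prime end divided by that at the 5-prime end was 0.513 to 0.623 on KO arrays and 0.353 to 0.441 on WT arrays. Their part in the results was not tested. Setting the 75th percentiles of the arrays equal moved the median KO minus WT difference of all genes to -0.10 under vehicle and -0.13 under db-cAMP on the log2 scale, and the values below are without it.

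Adat2 and Stx11 were higher in KO cells, and Aig1, Map7, Sf3b5 and Tbpl1 were lower. The largest differences were those of Map7, 3.44-fold lower under db-cAMP and 2.15-fold lower under vehicle, and of Adat2, 2.07-fold and 1.98-fold higher. All fold changes are on the scale log2(signal + 5.48), which understates those of dim probe sets. Of all 12091 genes tested 29.2% differed under db-cAMP (15.9% higher and 13.3% lower in KO cells), 10.8% under vehicle (5.06% higher and 5.78% lower) and 6.88% in the same direction under both, and since the genes were chosen on this contrast nothing is read from their number.

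Adat2 had signals of 2039 and 2263 in KO cells and 1060 and 1011 in WT cells under db-cAMP. Under vehicle it had 2799 and 2752 in KO cells and 1469 and 1331 in WT cells. Every KO array was above every WT array, and the 4 groups did not overlap, with KO vehicle highest, then KO db-cAMP, WT vehicle and WT db-cAMP. The log2 difference, KO minus WT, was 1.05 ± 0.09 under db-cAMP and 0.99 ± 0.09 under vehicle (SE of the fit, 2 arrays a group). Its single probe set was well above the median signal of each array, which ran from 56.2 to 70.5.

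Stx11 had signals of 5573 and 5178 in KO cells and 4283 and 4340 in WT cells under db-cAMP. Under vehicle it had 3580 and 3065 in KO cells and 2060 and 1765 in WT cells. The groups did not overlap and ran from KO db-cAMP down through WT db-cAMP and KO vehicle to WT vehicle. KO minus WT was 0.32 ± 0.10 under db-cAMP and 0.80 ± 0.10 under vehicle on the log2 scale, and with equal 75th percentiles 0.19 under db-cAMP. Its other probe set also read higher in KO cells, at 858 and 890 in KO cells against 537 and 706 in WT cells under db-cAMP and at 636 and 587 in KO cells against 346 and 477 in WT cells under vehicle. The differences of this probe set were 0.50 and 0.58.

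**Figure D1:**
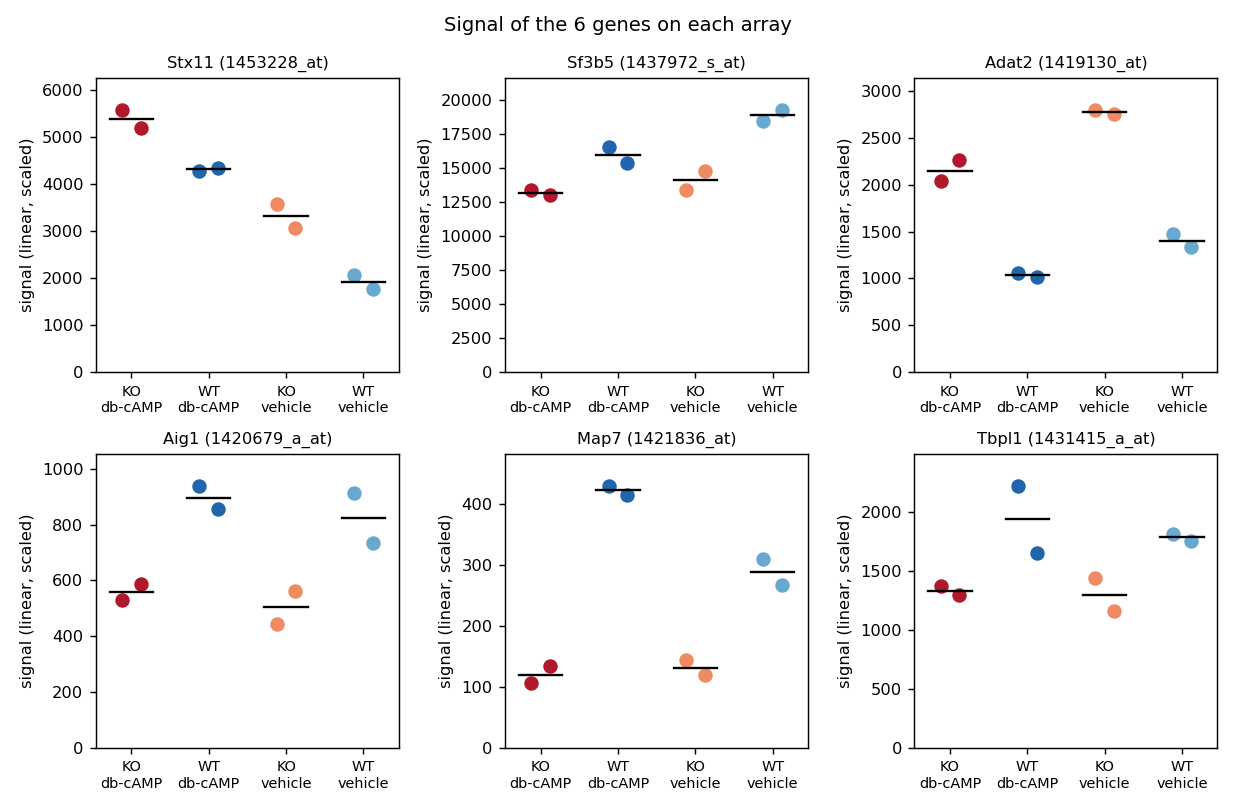
Linear scaled signal of the probe set used for each of the 6 genes on each array, with groups on the x axis, points for single arrays and bars for the mean of 2. Adat2 and Stx11 are higher and Aig1, Map7, Sf3b5 and Tbpl1 lower in KO than in WT cells given the same treatment.

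Map7 had signals of 106 and 133 in KO cells and 430 and 415 in WT cells under db-cAMP. Under vehicle it had 144 and 118 in KO cells and 310 and 267 in WT cells. WT cells given db-cAMP stood highest and WT cells given vehicle next, without overlap, whereas the KO groups overlapped below them. KO minus WT was -1.78 ± 0.23 under db-cAMP and -1.11 ± 0.23 under vehicle. A second probe set read 17.8 and 33.4 in KO cells and 124 and 114 in WT cells under db-cAMP, and 16.2 and 27.0 in KO cells and 86.5 and 89.9 in WT cells under vehicle. Its KO values lay below the median of their arrays, so no fold is given. The third probe set lay below the median on all 8 arrays, at 0.99 to 10.4 in KO cells and 20.5 to 43.2 in WT cells. The first and second probe sets read lower in KO cells without overlap, and the mean of all 3 gave -1.73 under vehicle.

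Aig1 had signals of 528 and 585 in KO cells and 939 and 854 in WT cells under db-cAMP. Under vehicle it had 445 and 561 in KO cells and 912 and 732 in WT cells. The KO arrays all lay below the WT arrays, and within a genotype the treatments overlapped. KO minus WT was -0.68 ± 0.15 under db-cAMP and -0.70 ± 0.15 under vehicle. Aig1 has 1 probe set. It and Adat2, its neighbour, thus differed in opposite directions.

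Sf3b5 had signals of 13367 and 12989 in KO cells and 16502 and 15334 in WT cells under db-cAMP. Under vehicle it had 13401 and 14795 in KO cells and 18451 and 19251 in WT cells. WT vehicle was highest, then WT db-cAMP, and the KO groups below them were separated by less than their spread. KO minus WT was -0.27 ± 0.07 under db-cAMP and -0.42 ± 0.07 under vehicle, against -0.02 and -0.24 with quantile normalization and -0.71 and -0.80 with the mean of all its probe sets. The second probe set gave -0.26 and -0.33. The third lay below the median on all 8 arrays, at 0.90 to 4.50 in KO cells and 3.74 to 51.8 in WT cells, and its WT replicates differed by more than the genotypes did. This dim probe set enters the mean of all probe sets above, at -1.58 and -1.65. The _s_at and _x_at endings of these probe sets mark probes that can bind more than 1 transcript.

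Tbpl1 had signals of 1370 and 1293 in KO cells and 2220 and 1646 in WT cells under db-cAMP. Under vehicle it had 1437 and 1155 in KO cells and 1812 and 1750 in WT cells. KO and WT arrays did not overlap, and the treatments overlapped within each genotype. KO minus WT was -0.52 ± 0.14 under db-cAMP and -0.47 ± 0.14 under vehicle. Without WT db-cAMP replicate 1 the difference under db-cAMP was -0.31, and without KO vehicle replicate 2 that under vehicle was -0.31. Its other probe set read 542 and 706 in KO cells and 694 and 780 in WT cells under db-cAMP, and 468 and 624 in KO cells and 562 and 700 in WT cells under vehicle. Those ranges overlapped under each treatment, with differences of -0.25 and -0.21.

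**Figure D2:**
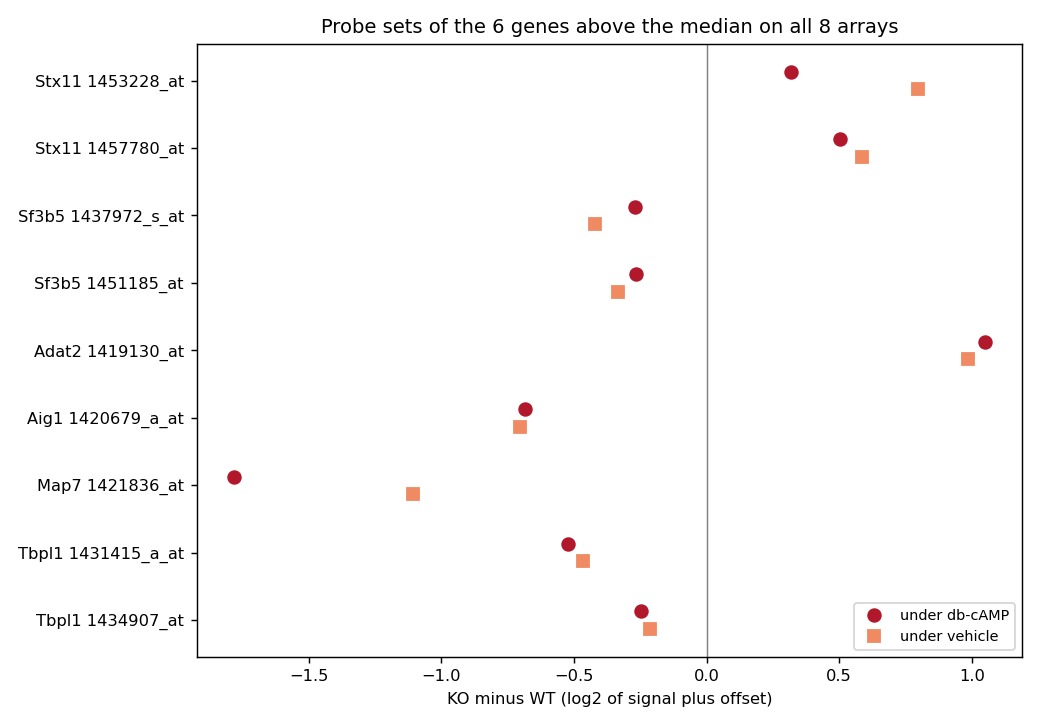
KO minus WT difference on the log2(signal + offset) scale for the 9 probe sets of the 6 genes above the array median on all 8 arrays, under db-cAMP (circles) and vehicle (squares). The pairs of probe sets of Stx11, Sf3b5 and Tbpl1 each lie on 1 side of 0, and the values run from -1.78 for Map7 to 1.05 for Adat2.

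The choice stated no threshold, so the limit used here was an adjusted p of 0.05 in both comparisons, in the same direction. The members nearest to it on the inner side were Tbpl1 and then Stx11, given without p-values because their passing was fixed by the choice. Genes just outside it are given with the larger limma adjusted p of both comparisons. They were Tnfaip3, an inhibitor of NF-kappaB 9 genes before Ifngr1, at 0.0656, the peroxisome biogenesis gene Pex3 at 0.107 and the kinase gene Sgk1 at 0.108. The differences of Tnfaip3 were -1.23 ± 0.11 under db-cAMP and 0.33 ± 0.11 under vehicle, and those of Pex3 were 0.26 and -0.30. For both genes the differences were opposite in sign, so they could not pass at any p. Those of Sgk1, 0.60 ± 0.19 and 0.51 ± 0.19, had the same sign. So had those of the next such gene, E030030I06Rik, 53 genes after Ifngr1, at -2.94 ± 0.91 and -2.36 ± 0.91 (larger limma adjusted p = 0.128). It was dim, with signals of 31.0 and 3.38 in KO cells and 151 and 117 in WT cells under db-cAMP. Beyond the limit of 100 genes, the nearest genes that passed in both comparisons were Katna1, which encodes the microtubule-severing enzyme katanin, 124 genes before Ifngr1 at -0.89 and -0.50, Zup1, a ubiquitin protease gene, 231 genes after it at -0.45 and -0.35, and the membrane channel gene Calhm6, 238 genes after it at -3.56 and -2.65.

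Hivep2, a zinc finger transcription factor gene 54 genes before Ifngr1, met the same limits without being one of the 6. It had signals of 2086 and 2064 in KO cells and 1335 and 1419 in WT cells under db-cAMP, and of 2063 and 1723 in KO cells and 1262 and 1359 in WT cells under vehicle. Its KO minus WT differences were 0.59 ± 0.10 and 0.52 ± 0.10, and the groups of the 2 genotypes did not overlap.

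Of the 200 genes in the table from 1 to 100 genes from Ifngr1, 61 were named on the array and 39 were tested, and 7 of these (17.9%) differed in the same direction under both treatments, beside 6.88% of all genes tested. They were the 6 genes and Hivep2, which left 1 of 33 when the 6 were set aside. The 6 were chosen in this window for differing under both treatments, so nothing is read from these counts or from their split by distance. Only Map7 lay among the 19 tested genes nearest to Ifngr1, within 50 genes, whereas the other 6 lay among the 20 tested genes 51 to 100 genes away. From there to 200 genes away 1 of 42 passed, and on the rest of chromosome 10 beyond 100 genes 40 of 542 did (7.38%). The count of 7 fell to 2 without the intensity trend in the fit and to 4 when replicate 1 of WT vehicle or of WT db-cAMP, or either array of KO db-cAMP, was left out.

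The 10 other tested genes between Stx11 and Aig1 and up to 3 genes from Map7 or Tbpl1 are all given, by a rule of position made after their values were seen. Between Stx11 and Aig1, the zinc finger gene Plagl1 averaged 2256 in KO cells and 4541 in WT cells under db-cAMP (limma adjusted p = 2.46e-05), and 750 in KO cells and 657 in WT cells under vehicle (adjusted p = 0.362). Ltv1, a ribosome assembly gene, stood at 0.86 ± 0.08 (adjusted p = 3.73e-06) and 0.00 ± 0.08 (0.992). Phactr2, a regulator of phosphatase and actin, stood at 0.42 ± 0.12 (adjusted p = 0.0195) and 0.31 ± 0.12 (0.142), the same direction under both. Pex3 is given above, and Zc2hc1b stood at -0.28 ± 0.94 (adjusted p = 0.863) and -0.44 ± 0.94 (0.851). Fuca2, which encodes a fucosidase, stood at -0.04 (adjusted p = 0.923) and 0.15 (0.748), 2 genes from Adat2. Next to Map7, the kinase gene Map3k5 stood at -0.58 ± 0.09 under db-cAMP (adjusted p = 0.000347) and 0.22 ± 0.09 under vehicle (0.164), and the peroxisomal import gene Pex7 at -0.09 and 0.01. Slc35d3 stood at -0.50 ± 0.71 and 0.16 ± 0.71, and Slc2a12, a sugar transporter gene next to Tbpl1, at -0.38 ± 0.58 and -0.59 ± 0.58. Plagl1, Ltv1, Phactr2 and Map3k5 thus passed under db-cAMP alone and the other 6 under neither treatment.

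**Figure D3:**
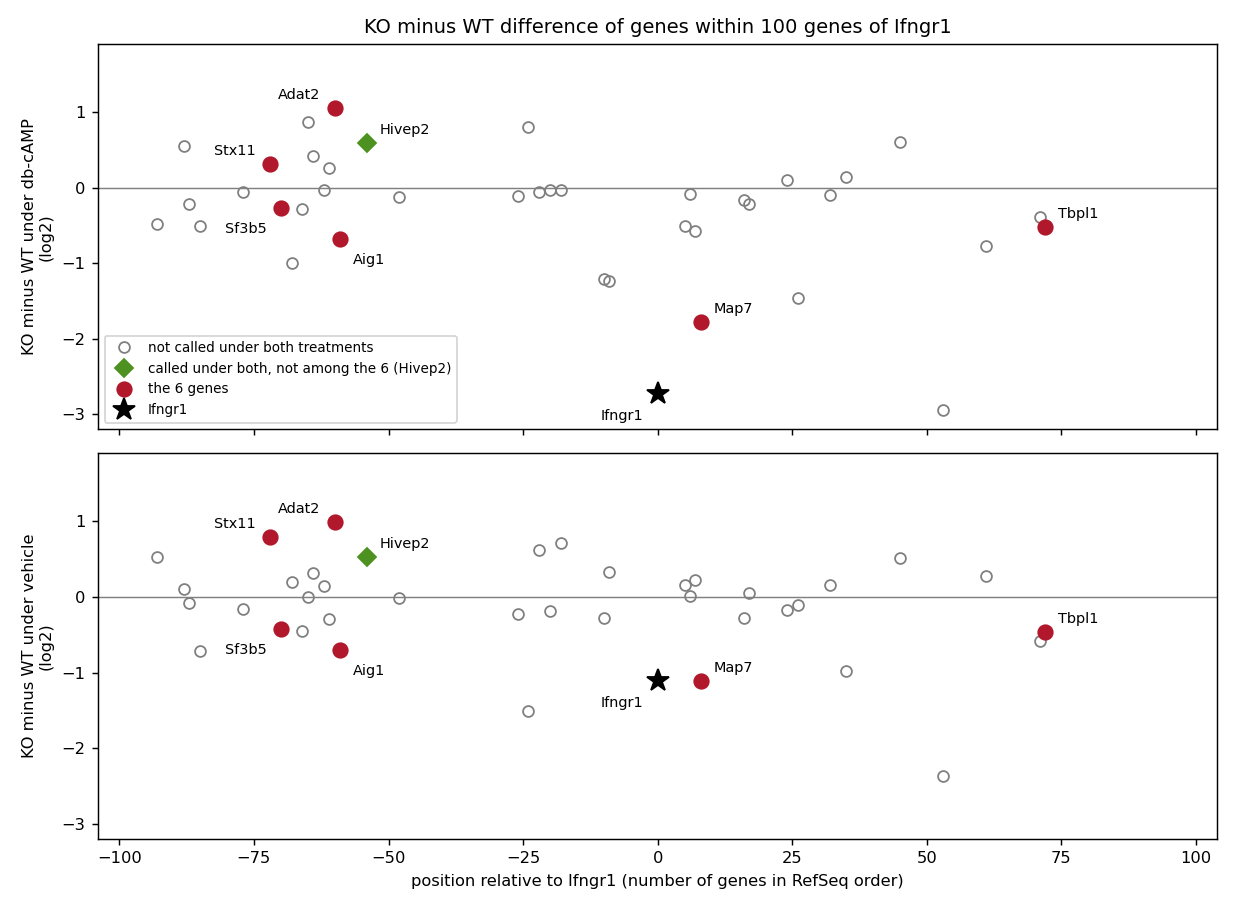
KO minus WT difference on the log2 scale (y axis; db-cAMP above, vehicle below) of the tested genes within 100 genes of Ifngr1, by position in the RefSeq gene order (x axis). Filled circles are the 6 genes, the diamond is Hivep2, the star is Ifngr1 and open circles are the other tested genes, most of which lie between the members without passing in both comparisons.

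The response to db-cAMP was not used to choose the genes and was tested. It was tested as the mean of both genotypes, which is orthogonal to the KO minus WT differences, and within each genotype, which shares arrays with them. All these tests use the same estimate of each gene's spread as the KO comparisons, so they are not fully free of the choice. Stx11 rose, Adat2 and Sf3b5 fell, and Aig1, Map7 and Tbpl1 did not pass. The 3 of 6 that changed stand beside 33.3% of all 12091 genes tested (15.9% higher and 17.5% lower with db-cAMP). In KO cells 2 of 6 changed, beside 8.38% of all genes (4.7% higher and 3.68% lower). In WT cells 3 of 6 did, beside 35% of all genes (16.4% higher and 18.6% lower).

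Technical signals moved with db-cAMP too. The 18S rRNA signal averaged 31397 to 38701 on db-cAMP arrays and 24553 to 28575 on vehicle arrays, and its 3-prime over 5-prime ratio was 0.548 to 0.623 with db-cAMP and 0.513 to 0.522 with vehicle in KO cells, and 0.410 to 0.441 and 0.353 to 0.386 in WT cells. Poly-A controls averaged 4332 to 5188 with db-cAMP and 3699 to 4130 with vehicle in KO cells, and 1583 to 1911 and 1283 to 1456 in WT cells. Their part in the responses was not tested.

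Stx11 rose 1.91-fold as the mean of both genotypes (log2 0.94 ± 0.07, limma adjusted p = 1.84e-07), and all 4 db-cAMP arrays were above the vehicle arrays of their genotype. The rise was 0.70 ± 0.10 in KO cells (adjusted p = 0.000448) and 1.17 ± 0.10 in WT cells (adjusted p = 5.67e-07). In KO cells it was not called without the intensity trend (adjusted p = 0.0758). The other Stx11 probe set, tested among all probe sets, rose by 0.55 ± 0.12 as the mean (adjusted p = 0.004) and stood at 0.51 in KO cells (adjusted p = 0.121) and 0.59 in WT cells (adjusted p = 0.02).

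Of 5 NK cell markers 4 were measured and 2 tested, and both rose with db-cAMP as the mean of genotypes, Klrd1 by 1.01 ± 0.11 (limma adjusted p = 6.75e-06) and Eomes, a transcription factor gene, by 0.93 ± 0.12 (adjusted p = 5.45e-05). Klrd1 rose by 1.18 in KO cells (adjusted p = 0.000258) and by 0.83 in WT cells (adjusted p = 0.000719). Eomes rose by 1.59 in WT cells (adjusted p = 9.04e-06) but stood at 0.27 ± 0.18 in KO cells (adjusted p = 0.446). The summed signal of Klrd1 and Eomes was 1314 to 1437 with db-cAMP and 741 to 803 with vehicle in KO cells, and 1665 to 1846 and 673 to 851 in WT cells. The defining NK receptor gene Ncr1, at 4.57 to 35.7, and Klra8, at 1.42 to 28.7, lay below the median on all 8 arrays. The part of NK cells in the Stx11 signal was not tested, and in bulk RNA more cells of a type and more RNA per cell cannot be told apart.

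Adat2 fell by 0.40 ± 0.07 on the log2 scale as the mean of both genotypes (limma adjusted p = 0.000316), a 1.32-fold change, with each db-cAMP array below the vehicle arrays of its genotype. It fell by 0.37 ± 0.09 in KO cells (adjusted p = 0.0268) and by 0.43 ± 0.09 in WT cells (adjusted p = 0.00244). The call in KO cells was lost without KO vehicle replicate 1 (adjusted p = 0.109) or 2 (0.122), without KO db-cAMP replicate 1 (0.248) or 2 (0.0624), and without the intensity trend (0.159).

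Sf3b5 fell by 0.17 ± 0.05 as the mean (limma adjusted p = 0.02), a 1.13-fold change, and by 0.24 ± 0.07 in WT cells (adjusted p = 0.0179), and stood at -0.10 ± 0.07 in KO cells (adjusted p = 0.529). The mean was not called without replicate 2 of WT vehicle (adjusted p = 0.0648), WT db-cAMP (0.0667), KO vehicle (0.0831) or KO db-cAMP (0.0796), and the WT change not without replicate 2 of WT vehicle (0.101) or WT db-cAMP (0.118). Both were lost without the intensity trend (0.126 and 0.118) and with the mean of all probe sets of the gene (0.87 and 0.837), and its second probe set alone stood at -0.12 ± 0.06 as the mean (adjusted p = 0.144).

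Aig1 stood at 0.14 ± 0.11 (limma adjusted p = 0.357), Tbpl1 at 0.07 ± 0.10 (adjusted p = 0.619) and Map7 at 0.21 ± 0.16 (adjusted p = 0.377) as the mean of both genotypes. Map7 stood at -0.13 ± 0.23 in KO cells (adjusted p = 0.837) and 0.55 ± 0.23 in WT cells (adjusted p = 0.0857), and WT cells alone gave an adjusted p of 0.0478. How far the response differs between the genotypes is the same number as how far the KO minus WT difference changes with treatment, which the choice of the genes used, and it was not tested.

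**Figure D4:**
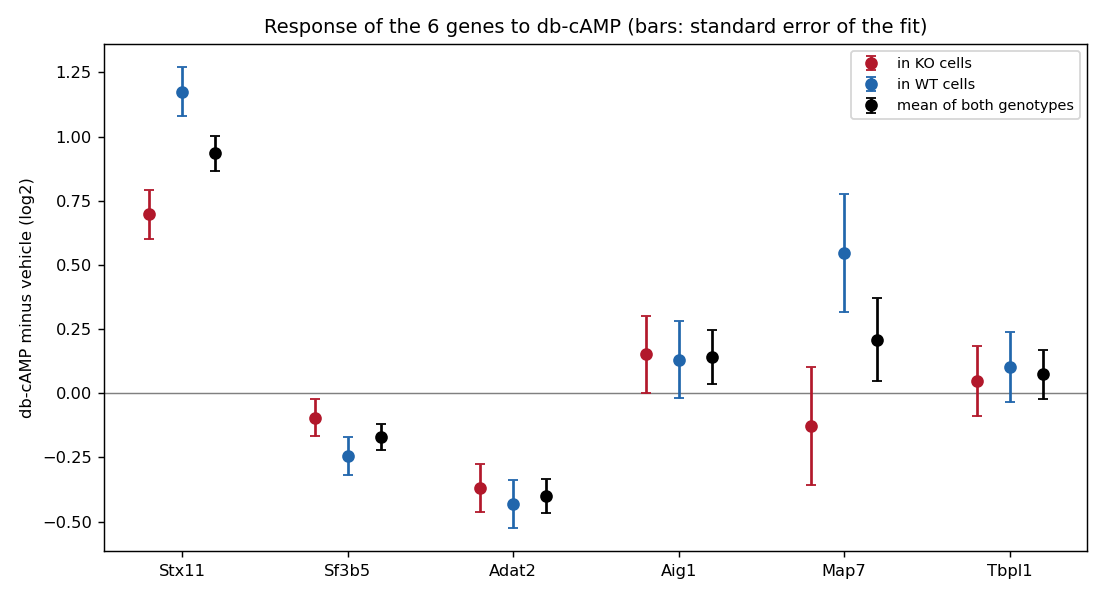
Log2 change with db-cAMP against vehicle (y axis) of the 6 genes (x axis) in KO cells, in WT cells and as the mean of both, with bars for the standard error of the fit. Stx11 lies above 0 at 0.70, 1.17 and 0.94, Adat2 below 0 at -0.37, -0.43 and -0.40, and the bars of Tbpl1 in KO and in WT cells include 0.

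Partners and relatives of the 6 genes were read from lists drawn up by function, with earlier results of these data known. Medians over all genes tested lay between -0.01 and 0.01 in all comparisons used here. The KO against WT counts of each list include its member, whose call was fixed by the choice, so nothing is read from that call. Beside the counts stand 29.2% of all genes called under db-cAMP and 10.8% under vehicle, and 33.3% for the mean response to db-cAMP. Of 8 tested SF3B complex genes 3 were higher and 2 lower in KO cells under db-cAMP, with a median of 0.02, and 0 were higher and 2 lower under vehicle, with a median of 0.00. The lower ones under both treatments were Sf3b5 and Sf3b6, another small subunit, at -0.33 ± 0.08 (limma adjusted p = 0.00444) and -0.27 ± 0.08 (adjusted p = 0.0386). The 3 higher under db-cAMP were Sf3b3 at 0.45 ± 0.09 (adjusted p = 0.00214), Sf3b4 at 0.42 ± 0.09 (adjusted p = 0.00356) and Sf3b2 at 0.40 ± 0.09 (adjusted p = 0.00401). Under vehicle these stood at 0.24, 0.25 and 0.28 and were not called. With db-cAMP 0 rose and 3 fell as the mean (list median -0.07): Sf3b5, Sf3b3 at -0.29 and Phf5a at -0.27.

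Of 5 tested adenosine deaminase genes, with a median of 0.26 under db-cAMP and 0.14 under vehicle, none but the chosen Adat2 was called between KO and WT cells. The partner of Adat2, Adat3, stood at 0.26 (limma adjusted p = 0.532) under db-cAMP and 0.60 (adjusted p = 0.205) under vehicle. With db-cAMP 1 rose, Adar at 0.50, and 2 fell, Adat2 and Adarb1 at -0.77, with a list median of -0.40. Of 18 tested granule SNARE genes 2 were higher and 5 lower in KO cells under db-cAMP, with a median of -0.21, and 2 were higher and 0 lower under vehicle, with a median of -0.06. Those higher under both were Stx11 and Stx6, a syntaxin of the trans-Golgi network, at 0.83 ± 0.07 (adjusted p = 2.42e-06) and 0.46 ± 0.07 (adjusted p = 0.00132), though the Stx6 probe set can bind other transcripts. The 5 lower under db-cAMP were Unc13d at -0.57 ± 0.17, Stx12 at -0.56 ± 0.11, Stxbp2 at -0.56 ± 0.15, Vamp8 at -0.55 ± 0.09 and Stxbp3 at -0.54 ± 0.10. None of them was called under vehicle. With db-cAMP 4 of the 18 rose and 1, Stx6, fell as the mean (list median 0.15), the rises being Stx11, the Munc18 gene Stxbp3 at 0.70, Stx7 at 0.63 and Stx12 at 0.33.

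Of 7 tested MAP7 family and kinesin-1 genes 1 was higher and 2 lower in KO cells under db-cAMP, and 1 was higher and 1 lower under vehicle, with medians of -0.11 and 0.24. Kif5b, the ubiquitous kinesin-1 heavy chain, was higher at 0.88 ± 0.08 (limma adjusted p = 4.64e-06) and 1.10 ± 0.08 (adjusted p = 2.27e-06), opposite to Map7, and the relative Map7d1 was lower under db-cAMP at -0.38 ± 0.10 (adjusted p = 0.0111). With db-cAMP 3 of the 7 rose and 0 fell (list median 0.48): Map7d1 at 0.81, Klc4 at 0.52 and Klc1 at 0.48. Of 12 tested TBP family genes 0 were higher and 3 lower in KO cells under db-cAMP, Tbpl1, Taf12 at -0.37 and Gtf2b at -0.27, and 0 were higher and 1 lower under vehicle, Tbpl1. The medians of this list were 0.13 and -0.01, so that under db-cAMP the median and the called genes had opposite signs. With db-cAMP 2 of its genes rose, Taf1 at 0.28 and Gtf2b at 0.26, and 1 fell, Btaf1 at -0.20. Of 4 tested genes of the Aig1 list, none but the chosen Aig1 was called between KO and WT cells under either treatment, with list medians of -0.45 and -1.06. These medians include dim genes. In KO cells under vehicle Adtrp had signals of 7.81 and 4.84 and Cel 58.8 and 4.64. Their differences under vehicle were -2.63 ± 1.02 (limma adjusted p = 0.133) and -1.41 ± 1.07 (adjusted p = 0.492). Pnpla2, a lipase gene, rose with db-cAMP at 0.48.

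The genes whose profiles over the 8 arrays were most like those of the members, by Pearson r of log2 signal over all genes tested, are given as a description. The 8 arrays fall into 4 groups, which all these profiles share. They were Tnfsf8 (r = 0.99) and Mgat2 (0.99) for Adat2, Dstn (0.99) and Tpcn1 (0.98) for Aig1, and Ifi47 and Manf (0.99 each) for Map7. For Sf3b5 they were Cdc6 and Sars (0.99 each), for Stx11 Wdr1 and B4galt1 (0.99 each), and for Tbpl1 Tacc3 (0.98) and 4933412E12Rik (0.97). Of these 12 genes 4933412E12Rik is the single one on chromosome 10. Ifi47, an interferon-inducible GTPase gene, had 4246 and 4646 in KO cells and 21772 and 22462 in WT cells under db-cAMP, and 5712 and 5491 in KO cells and 13799 and 13577 in WT cells under vehicle, the same order of groups as Map7 apart from the KO groups.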

How the data were processed

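RNA of 8 samples was read on 8 arrays of 45101 probe sets. The deposited values are linear signal intensities made by the authors with MAS5, per the submitters' processing notes, and every array had the same 2% trimmed mean, so each had been scaled by the authors before deposit. No MAS5 version or setting was stated in these sources. Of the probe sets, 34945 carried 1 gene symbol, 932 several and 9160 none, and 64 were controls. Each gene was read by its brightest probe set. Genes above the array median on at least 2 arrays were kept (12091 of 18193), all 6 members among them. Members and gene lists were chosen with earlier results of these data known. Signals were taken as log2(intensity + 5.48), the offset being the 10th percentile of all values, and fitted with limma 3.58.1 in R 4.3.3, with 1 term per group, 4 residual degrees of freedom and an intensity trend in eBayes. P-values were adjusted by Benjamini-Hochberg over all genes tested, with a threshold of 0.05. The fit was tested on simulated data. Named genes were the 6 members and Ifngr1, other genes within 100 genes called in both KO comparisons, the 3 closest to that call, the 3 called genes nearest beyond 100 genes, the 2 most similar profiles per member, and up to 4 called genes of each list, largest first. Adat3, as the partner of Adat2, and tested genes between Stx11 and Aig1 or up to 3 genes from Map7 or Tbpl1 were added after values were seen. So were Adtrp, Cel, E030030I06Rik, the named CD4 and CD8 T cell markers, and further called genes of the SF3B and granule SNARE lists. The number of arrays limits the precision. Other offsets, filters, normalizations, probe set rules and designs were tried. Same-numbered replicates did not deviate together (r -0.02 to 0.02).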

Additional observations from a re-analysis of the deposited data

How the results depend on the processing

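None of the KO minus WT values of the 6 genes changed sign under the alternatives run: 215 of 228 stayed within the spread and 13 moved. Of 336 values for the db-cAMP effect 309 kept their sign and side of the threshold, 16 lost the call, 1 gained it and 10 changed sign, of which 0 were called in either fit; the cause was not tested. Those that changed sign were Tbpl1 in KO cells with equal 75th percentiles (-0.00216), Map7 in KO cells with the mean of probe sets (0.21) and values with 1 array left out. With 1 array left out the ranges were Aig1 in WT cells -0.0264 to 0.29, Tbpl1 in WT cells -0.11 to 0.32, Tbpl1 as the mean -0.0335 to 0.18, Aig1 in KO cells -0.0132 to 0.32, Map7 in KO cells -0.29 to 0.0288 and Tbpl1 in KO cells -0.11 to 0.20. The count of genes that differed between KO and WT cells under vehicle, 1311, was 756 with the mean of all probe sets, 2401 with every probe set on its own, 251 without the intensity trend and 617 to 1391 with 1 array left out. Under db-cAMP, 3529 became 2264 with the mean and 5790 with every probe set. The db-cAMP counts were 6385 with every probe set against 4233 in WT cells, and 6112 against 4032 as the mean of genotypes; in KO cells 1013 became 462 with the mean of probe sets, 188 without the trend and 446 to 1089 with 1 array left out. Of the 6 genes, 2 changed in KO cells, 0 without the trend and 1 to 2 with 1 array left out. The 7 genes near Ifngr1 became 2 without the trend, 1 within 50 genes and 4 to 6 with 1 array left out. With equal 75th percentiles, 401 genes were higher and 1177 lower in KO cells under vehicle (612 and 699 as reported) and 1370 and 2243 under db-cAMP (1926 and 1603). The same scaling gave 447 genes higher and 584 lower with db-cAMP in KO cells (568 and 445). With a replicate block the members changed were 3 in WT cells, 2 in KO cells and 3 as the mean, as without it, and 1250 and 3485 genes differed between KO and WT cells under vehicle and db-cAMP; the numbers did not pair the samples.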
